A study of Mus musculus with 6 samples.

Results

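The endoplasmic reticulum (ER) folding genes described here are 10 mouse genes whose products fold secreted proteins, form their disulfide bonds, remove those that misfold, or control the supply of these helpers: Hspa5, Hsp90b1, Sdf2l1, Pdia4, Pdia6, Edem1, Dnajb9, Dnajc3, Herpud1 and Xbp1. They were chosen by name from 18193 genes measured, with earlier results of these data known. Each is given by its brightest probe set (a group of array probes that reads the same transcript) among those annotated to a single gene. Together they have 24 such probe sets. Liver RNA was measured on 6 expression arrays, 2 for each of 3 groups of 8-week-old male C57BL/6J mice. The groups are fed wild-type mice, kept on normal chow, and wild-type and Cnot3+/- mice that had gone without food for 24 h. The Cnot3 protein belongs to CCR4-NOT, a deadenylase complex that starts the decay of many mRNAs. What the mutant Cnot3 allele lacks is not given in the labels, and fed Cnot3+/- mice were not analysed here. The 2 arrays of a group are labelled biological replicates, with no word on whether each holds 1 mouse or a pool, and the fasted mice were caged singly. Values are RMA log2 levels, so a difference of 1 is a 2-fold change, and the number of arrays limits the precision of every value.

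Proteins that a cell secretes enter the ER as unfolded chains, are glycosylated and cross-linked there by disulfide bonds, and leave only when folded. When unfolded protein accumulates, the sensors Ire1, Atf6 and Perk start the unfolded protein response, in which Ire1 splices Xbp1 mRNA so that it encodes an active transcription factor, and Xbp1 and cleaved Atf6 switch on genes for chaperones and for ER-associated degradation. Hepatocytes secrete most plasma proteins and carry a large rough ER, and their secretory load changes with feeding.

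Cleaved Atf6 binds the ER stress response element (ERSE), which reads CCAAT, any 9 bases and then CCACG, and a related element, ERSE-II, reads ATTGG, any 1 base and then CCACG. The 250 bases before the gene start were taken from RefSeq promoters (GRCm38.p6), which matched all 10 genes. Both motifs and the shorter CCACG, which is contained in both, were searched on both strands; ERSE-II was added after the values were seen. The motifs were chosen as known elements of the response these genes take part in, so the counts are a description without a test. ERSE was present before 4 of the 10 genes (Hspa5, Hsp90b1, Pdia6 and Dnajc3), against 0.113% of 32851 promoters, and ERSE-II before 1 (Herpud1), against 0.0304%. CCACG was present before 8 of the 10, against 28.3% of promoters; Pdia4 and Xbp1 held none of these letters in this window. The sequences shown are those of the 3 genes that fell on fasting (Sdf2l1, Pdia6 and Edem1, described below) and of the chaperones Hspa5 and Hsp90b1, which did not pass the test. Each runs 5′ to 3′ on the strand of the gene. Capitals mark the fixed letters of ERSE and every CCACG, or CGTGG where it lies on the other strand. Each ends at the base before the start given with its promoter, which for Edem1 lies inside the interval of the gene. They lie at chr16:17132384-17132633 (minus strand), chr12:17266339-17266588 (plus strand), chr6:108828391-108828640 (plus strand), chr2:34771840-34772089 (plus strand) and chr10:86705445-86705694 (minus strand).
Sdf2l1: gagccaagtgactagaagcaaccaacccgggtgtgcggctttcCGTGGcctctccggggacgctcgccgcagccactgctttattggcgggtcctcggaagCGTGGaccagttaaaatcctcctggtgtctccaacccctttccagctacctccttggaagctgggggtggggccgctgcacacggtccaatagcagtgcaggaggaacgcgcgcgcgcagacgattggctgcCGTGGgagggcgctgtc
Pdia6: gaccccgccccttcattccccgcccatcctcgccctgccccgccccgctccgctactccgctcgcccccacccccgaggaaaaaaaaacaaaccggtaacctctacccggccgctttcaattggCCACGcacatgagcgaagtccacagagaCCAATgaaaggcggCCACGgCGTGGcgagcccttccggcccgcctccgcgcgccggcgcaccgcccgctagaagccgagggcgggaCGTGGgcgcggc
Edem1: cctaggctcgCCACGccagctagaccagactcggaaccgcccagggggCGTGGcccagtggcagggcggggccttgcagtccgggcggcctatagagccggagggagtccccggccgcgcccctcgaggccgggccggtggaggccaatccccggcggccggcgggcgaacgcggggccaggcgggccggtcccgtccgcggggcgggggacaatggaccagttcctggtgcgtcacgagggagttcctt
Hspa5: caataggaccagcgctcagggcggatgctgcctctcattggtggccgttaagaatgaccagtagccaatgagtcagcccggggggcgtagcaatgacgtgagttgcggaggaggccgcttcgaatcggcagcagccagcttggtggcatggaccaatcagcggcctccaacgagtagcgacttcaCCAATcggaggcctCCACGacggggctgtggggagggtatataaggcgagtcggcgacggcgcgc
Hsp90b1: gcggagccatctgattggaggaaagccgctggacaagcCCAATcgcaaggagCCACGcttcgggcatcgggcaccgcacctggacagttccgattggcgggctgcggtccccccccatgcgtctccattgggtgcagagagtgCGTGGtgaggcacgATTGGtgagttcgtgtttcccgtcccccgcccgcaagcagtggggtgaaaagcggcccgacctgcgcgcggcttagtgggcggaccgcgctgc

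Hsp90b1 carried 2 ERSE matches, one on each strand, and Sdf2l1 and Edem1 carried CCACG letters with no CCAAT at the spacing that ERSE requires. The Edem1 window lies inside the interval that RefSeq gives for the gene. For Dnajc3 and Herpud1 only the stretch around the match is shown, at chr14:118937817-118937855 (plus strand) and chr8:94386367-94386397 (plus strand), with the fixed letters of ERSE (Dnajc3) and of ERSE-II (Herpud1) in capitals.
Dnajc3: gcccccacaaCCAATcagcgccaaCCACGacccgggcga
Herpud1: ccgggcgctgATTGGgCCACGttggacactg

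**Figure D1:**
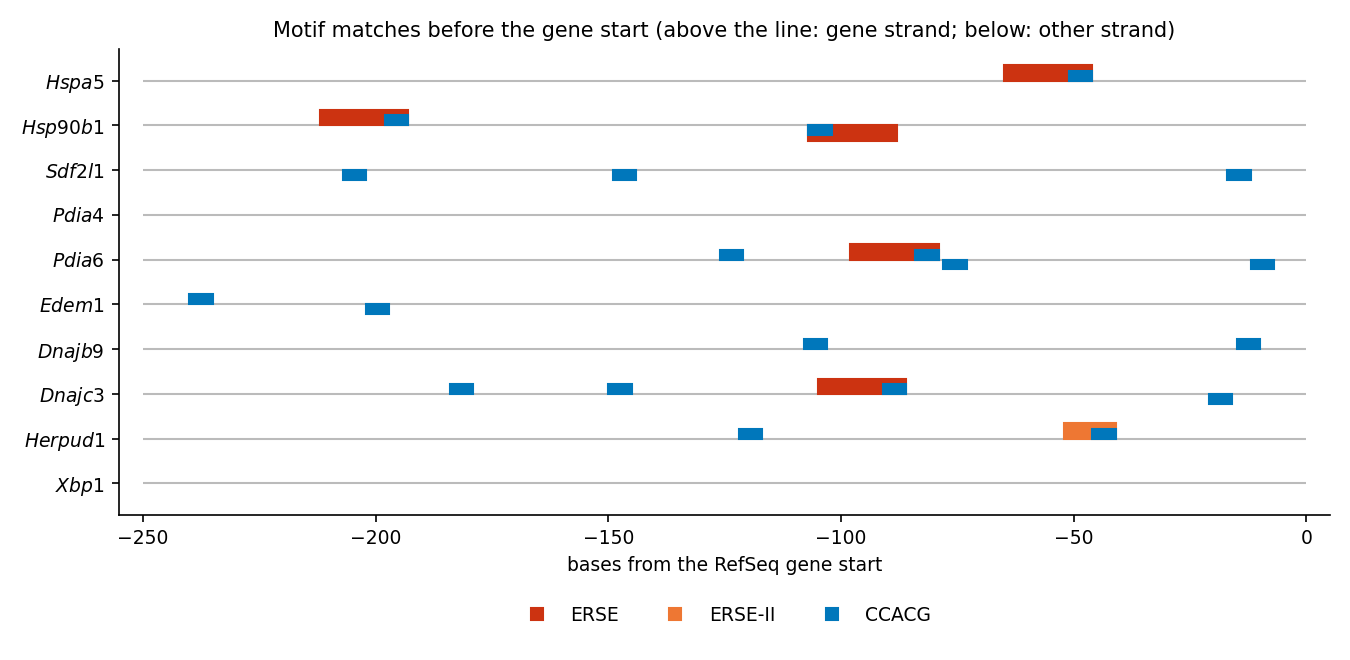
Matches to ERSE (red), ERSE-II (orange) and CCACG (blue) in the 250 bases before the gene start, in bases from the start, for the 10 genes. For Edem1 the start used lies inside the interval that RefSeq gives for the gene. Marks above a line are on the strand of the gene and marks below it on the other strand. ERSE lies nearest to the start in Hspa5, with its first base at -65, and 2 genes, Pdia4 and Xbp1, hold none of the 3 motifs.

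The array medians lay between 5.59 and 5.64, and all 10 genes read from 8.11 to 13.65 on every array, well above them. The 11 measured hepatocyte markers, among them albumin and Hnf4a, were above the array medians, with a mean level of 14.34 to 14.55 per array. Of the other ER-rich cell types that liver could hold, the mean level of 11 plasma and B cell markers was 5.79 to 6.01 and that of 13 exocrine pancreas markers 5.07 to 5.23, and the summed linear level of the pancreas list was 559 and 511 in fed, 619 and 562 in fasted wild-type and 543 and 556 in fasted Cnot3+/- liver. Among 13 macrophage markers no gene passed the fasting test and all 13 differences were positive (median 0.37), with summed levels of 7340 and 8690 in fed, 9920 and 10600 in fasted wild-type and 17100 and 11900 in fasted Cnot3+/- liver. Of 11 stellate cell and fibroblast markers 4 fell and 1 rose on fasting, against 3.15% of all genes lower and 1.87% higher. Among those that fell were Col3a1 (log2 -2.32) and Lrat (-1.20, or -0.76 with the mean over probe sets). The gene that rose was Dcn (0.61, limma adjusted p = 0.0497). Summed levels were 5590 to 6100 in fed, 5760 to 6160 in fasted wild-type and 6900 and 5490 in fasted Cnot3+/- liver. With single arrays left out the 4 lower calls became 0 to 2. Of 10 endothelial markers 1 rose and 0 fell, against the same shares over all genes. Lyve1, a hyaluronan receptor of sinusoidal endothelium, differed by 1.58 (SE 0.17, adjusted p = 0.00456), and by 1.90 (adjusted p = 0.00242) in fasted Cnot3+/- against fed liver. Its fasting call was lost without fasted wild-type replicate 1 (adjusted p = 0.0530). The summed endothelial levels were 4830 and 4770 in fed, 5200 and 5260 in fasted wild-type and 4200 and 5060 in fasted Cnot3+/- liver. No hepatocyte, plasma cell, pancreas or cholangiocyte marker passed the fasting test, and the part of these cell types in the values of the folding genes was not tested. In these bulk samples, fewer cells of a type and less RNA per cell cannot be told apart. The gap between the 3' and 5' probe sets of Pcx, a sign of RNA integrity, was 3.29 and 3.25 (log2) in fed, 2.67 and 1.87 in fasted wild-type and 4.12 and 2.81 in fasted Cnot3+/- liver, and that of Gapdh ran from -0.14 to 0.31 over the 6 arrays. Cnot3 mRNA, which should check the genotype labels, read 9.27 and 9.32 in fasted wild-type and 9.40 and 9.16 in fasted Cnot3+/- liver and did not pass the test (log2 -0.01, SE 0.13, limma adjusted p = 0.993), so the genotype is given as labelled.

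After the 24 h fast, 3 of the 10 folding genes had fallen in wild-type liver and none had risen. The fasted mice were caged singly, and the part of caging in these values was not tested. Sdf2l1, a small ER protein that works with the chaperone Hspa5 and its co-factor Dnajb11, fell 3.34-fold, and the disulfide isomerase Pdia6 and the degradation lectin Edem1 fell 1.82-fold and 1.80-fold. The calls of Pdia6 and Edem1 depended on single arrays, as described below. By their brightest probe sets, the 2 abundant chaperones of the ER lumen, Hspa5 and Hsp90b1, differed by under 0.1 on the log2 scale. A second Hsp90b1 probe set differed by 0.52 (SE 0.24) and did not pass. A gene is said to have changed at a limma adjusted p under 0.05 over all genes, a state that 5.02% of genes reached, with 3.15% lower and 1.87% higher. The median difference over the 10 genes was -0.16, against 0.02 over all genes, and 5 of the 10 had fasted levels wholly below the fed levels, against 23.7% of all genes lower and 50.8% apart in either direction. An unadjusted p under 0.05 was reached by 4 of the 10, against 18.9% of all genes.

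Sdf2l1 (RefSeq gene at chr16:17130138-17132383, GRCm38.p6) read 9.67 and 10.03 in fed, 8.11 and 8.11 in fasted wild-type and 8.12 and 8.37 in fasted Cnot3+/- liver. Every fasted array, of either genotype, was below both fed arrays. The fasting difference was -1.74 (log2, SE 0.16, adjusted p = 0.00308), which leaves 0.299 of the fed level with a 95% confidence interval from 0.231 to 0.388. Of all genes measured, 0.352% had a lower difference. The fall passed the test under all 13 alternative settings, with a difference from -1.92 to -1.56 and an adjusted p of at most 0.0351. Sdf2l1 has 1 probe set, so no other probe set checks it.

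Pdia6, an isomerase that forms and breaks disulfide bonds and restrains Ire1 and Perk signalling, read 11.94 and 11.97 in fed, 11.01 and 11.16 in fasted wild-type and 10.81 and 11.05 in fasted Cnot3+/- liver. The fed arrays were close together and above all fasted arrays. The difference of -0.87 (SE 0.13, adjusted p = 0.0161) leaves 0.549 of the fed level (95% confidence interval 0.441 to 0.682). Its second probe set read from 4.74 to 5.23, under the array medians, and its difference of -0.02 therefore checks nothing. The call was lost when the mean over both probe sets was used (-0.44, adjusted p = 0.133). Leaving out either fed array (adjusted p = 0.0668 without replicate 1 and 0.0852 without replicate 2) or either fasted wild-type array (0.133 and 0.0791) also ended it, while the difference stayed between -0.94 and -0.79.

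Pdia4, another disulfide isomerase with several thioredoxin-like domains, read 9.86 and 10.02 in fed, 9.64 and 9.73 in fasted wild-type and 9.46 and 9.72 in fasted Cnot3+/- liver. Its fasted levels lay below its fed levels by less than those of Pdia6, and the difference of -0.26 (SE 0.14, adjusted p = 0.382; 95% confidence interval -0.58 to 0.07) did not pass. Its other probe set lay under the array medians.

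Edem1, a mannosidase-like protein that marks misfolded glycoproteins for degradation, read 11.74 and 11.76 in fed, 10.81 and 10.99 in fasted wild-type and 10.88 ± 0.17 (SD, n = 2) in fasted Cnot3+/- liver. The groups of fed and fasted arrays did not overlap, and the fasting difference was -0.85 (SE 0.14, adjusted p = 0.0185), or 0.554 of the fed level. A second probe set read 11.04 and 11.01 in fed and 10.17 and 10.14 in fasted wild-type liver. Its difference was -0.87 (SE 0.12, limma adjusted p = 0.0216 when each probe set was tested on its own). It was read on the same arrays, so it checks the probes and is not a separate observation of the fall. The call was lost without either fed array (adjusted p = 0.0719 without replicate 1 and 0.0901 without replicate 2) and without either fasted wild-type array (0.141 and 0.0770), with the difference between -0.94 and -0.76. With any 1 of these 4 arrays left out, the count of folding genes that fell was therefore 1, Sdf2l1.

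Hspa5, the Hsp70 chaperone of the ER also known as BiP, read 13.49 and 13.50 in fed, 13.61 and 13.35 in fasted wild-type and 13.52 and 13.51 in fasted Cnot3+/- liver. The fasted wild-type arrays lay on either side of the fed arrays. The difference was -0.02 (SE 0.13, adjusted p = 0.970), and the 95% confidence interval of the ratio ran from 0.802 to 1.22. Its other 2 probe sets differed by -0.03 and -0.06. Taken within each array and set to 0 at the fed mean, the log2 ratio of Sdf2l1 to Hspa5 was -1.85 and -1.59 on the fasted wild-type arrays, that of Pdia6 was -1.05 and -0.65, and that of Edem1 was -1.06 and -0.62. All 4 fasted arrays lay below both fed arrays for each of the 3, and also for Dnajc3 (-0.46 and -0.25 on the fasted wild-type arrays). The 3 genes were picked for their fall on these same arrays. Their ratios therefore restate that fall and do not show that Hspa5 stayed level.

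Hsp90b1, the Hsp90 chaperone of the ER also known as Grp94, read 13.29 and 13.31 in fed, 13.38 and 13.10 in fasted wild-type and 13.43 and 13.24 in fasted Cnot3+/- liver, a fasting difference of -0.06 (SE 0.14, adjusted p = 0.883). Its second probe set disagreed with the first: it read 12.17 and 12.15 in fed, 12.52 and 12.85 in fasted wild-type and 11.72 and 12.43 in fasted Cnot3+/- liver, a fasting difference of 0.52 (SE 0.24, adjusted p = 0.342). The array on which it was lowest, fasted Cnot3+/- replicate 1, had the widest 3' to 5' gap of Pcx (4.12), and the array on which it was highest, fasted wild-type replicate 2, the narrowest (1.87). The part of RNA integrity in this probe set was not tested.

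**Figure D2:**
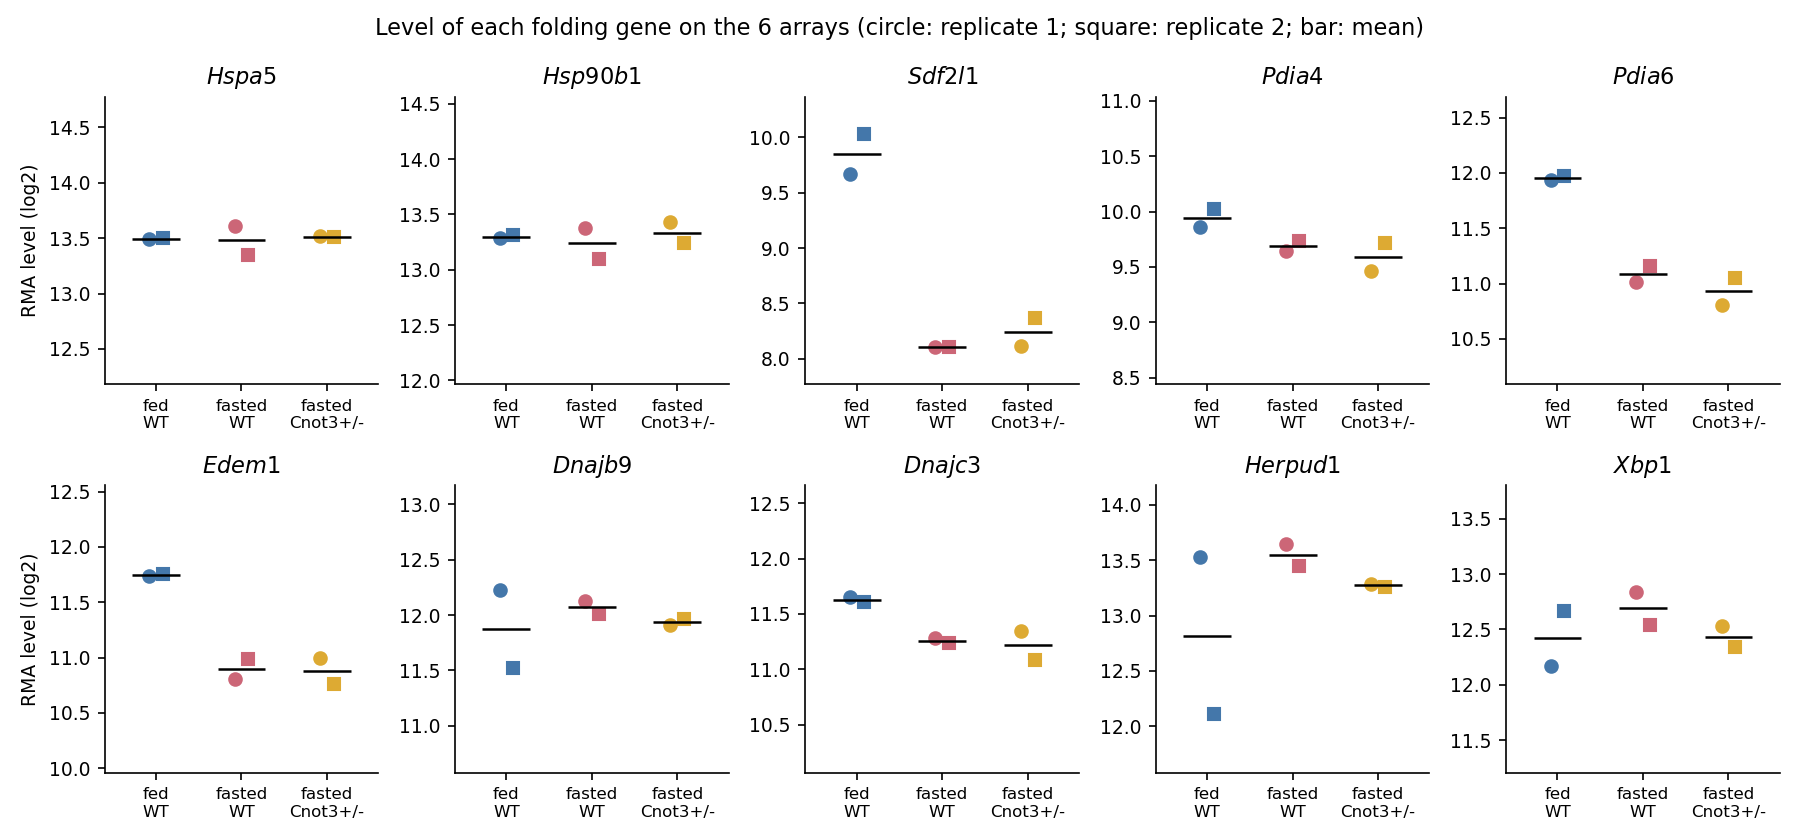
RMA level (log2) of the brightest probe set of each of the 10 genes on the 6 arrays, by group; circles are replicate 1, squares replicate 2 and bars the mean of 2 arrays, and every panel spans the same range of log2 units. Sdf2l1, Pdia6, Edem1, Pdia4 and Dnajc3 are lower on all 4 fasted arrays than on either fed array. Fasted wild-type levels lay wholly below the fed levels for 23.7% of all genes. The fed arrays lie apart for Herpud1 (13.53 and 12.11).

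Neither of the 2 co-chaperones that deliver clients to Hspa5 passed the test. Dnajc3, a J-domain co-chaperone also known for inhibiting Perk, read 11.65 and 11.61 in fed, 11.28 and 11.24 in fasted wild-type and 11.35 and 11.08 in fasted Cnot3+/- liver. Its fasted levels were all below its fed levels, and the difference of -0.37 (SE 0.13) had an unadjusted p of 0.0253 but did not pass over all genes (adjusted p = 0.183). Its 5 probe sets differed by -0.38 to -0.21, all downward. Dnajb9, a co-chaperone that also binds Ire1, read 12.23 and 11.52 in fed, 12.13 and 12.01 in fasted wild-type and 11.91 and 11.96 in fasted Cnot3+/- liver. The spread of its fed arrays covered the fasted levels, and the difference of 0.19 (SE 0.22, adjusted p = 0.728) turned to -0.17 without fed wild-type replicate 2.

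Herpud1, a membrane protein of the complex that passes misfolded proteins to the proteasome, differed most between the fed arrays. It read 13.53 and 12.11 in fed, 13.65 and 13.45 in fasted wild-type and 13.29 and 13.26 in fasted Cnot3+/- liver, so that fed wild-type replicate 2 alone was low. The gap of 1.42 between the fed arrays was wider than that of 99.7% of all genes, and the gap of 0.72 at Dnajb9 was wider than that of 97.6%. The second Herpud1 probe set, at 12.75 and 11.37, had the same gap. The fasting difference was 0.73 (SE 0.39, adjusted p = 0.381; 95% confidence interval -0.19 to 1.65), it was 1.44 (adjusted p = 0.0156) without fed wild-type replicate 1, and it was 0.02 without fed wild-type replicate 2. The same 2 arrays differed at genes that insulin represses: Igfbp1 read 12.26 and 8.33 and Pck1 13.93 and 11.74 on fed wild-type replicates 1 and 2, while Srebf1 read 13.03 and 13.51. These genes were chosen after their values were seen, and their relation to Herpud1 was not tested.

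Xbp1, the transcription factor of the Ire1 branch, read 12.17 and 12.67 in fed, 12.84 and 12.54 in fasted wild-type and 12.53 and 12.34 in fasted Cnot3+/- liver, and the groups overlapped. The difference was 0.27 (SE 0.20, adjusted p = 0.536), and its 4 probe sets gave differences from -0.11 to 0.27. The probe sets do not separate spliced from unspliced Xbp1 mRNA, so they carry no measure of its activation.

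**Figure D3:**
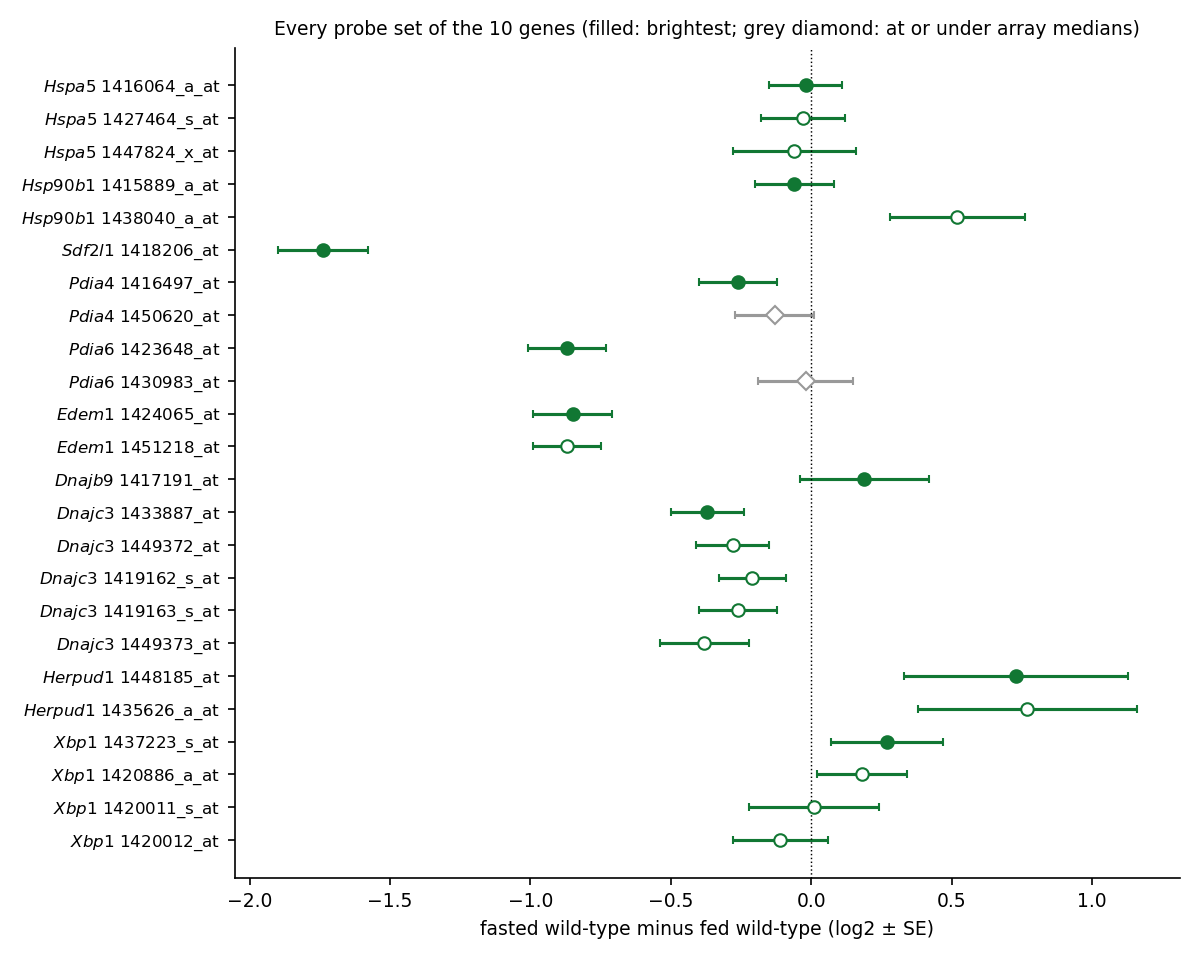
Difference between fasted and fed wild-type liver (log2, with standard error) for all 24 probe sets of the 10 genes; filled circles are the brightest probe set of a gene, open circles the others, and grey diamonds those under the array medians. Of the 24, which repeat the 10 genes on the same arrays, 17 lie below 0, and 4 passed the test when each probe set was tested on its own (Sdf2l1, the brighter of Pdia6 and both of Edem1).

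With each of 34945 probe sets tested on its own, 4 of the 24 probe sets, from 3 genes, passed in the fasting comparison, against 2.63% of all.

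Between fasted Cnot3+/- and fasted wild-type liver, no folding gene passed the test. limma called 0 of the 10 genes and 0 of 18193 overall (a share of 0%), with or without a variance trend, and 0 of the 10 had an unadjusted p under 0.05, which 5.56% of all genes had. The differences ran from -0.28 for Herpud1 to 0.13 for Sdf2l1, with a median of -0.07 against 0.00 over all genes. Groups did not overlap for 4 of the 10 genes (Herpud1, Xbp1 and Dnajb9 lower and Sdf2l1 higher on the Cnot3+/- arrays), against 36.0% of all genes.

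The precision differed among the genes. For the 3 genes that fell on fasting, the 95% confidence intervals of the Cnot3+/- to wild-type ratio were 0.848 to 1.42 (Sdf2l1), 0.722 to 1.12 (Pdia6) and 0.793 to 1.23 (Edem1). For Herpud1 the interval ran from 0.436 to 1.56, which includes changes of over 2-fold downward. Among the dimmer probe sets, the 2 dimmest of Dnajc3 differed by -0.62 (SE 0.16) and -0.43 (SE 0.14), while its brightest differed by -0.04, and the second Xbp1 probe set differed by -0.49 (SE 0.16). The second Hsp90b1 probe set differed by -0.61 (SE 0.24), against 0.10 for the first, and with the mean over both Hsp90b1 differed by -0.26. By its brightest probe set 7 of the 10 genes were lower in fasted Cnot3+/- liver, as were 19 of the 24 probe sets. The 24 probe sets repeat the 10 genes on the same arrays, so they are not separate observations. No share of lower probe sets over the whole series was taken. None of the 24 passed, the smallest limma adjusted p being 0.814.

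Fasted Cnot3+/- liver was also compared with fed wild-type liver; this comparison shares the fed arrays with the fasting comparison, so the values stand side by side and neither supports the other. The 3 genes that passed were again Sdf2l1, Pdia6 and Edem1, all lower, against 7.56% of all genes called (3.68% lower and 3.88% higher). An unadjusted p under 0.05 was reached by 5 of the 10, against 21.3% of all genes. Groups did not overlap for 6 of the 10, 5 of them lower, against 48.0% of all genes in either direction and 23.4% lower. Sdf2l1 differed by -1.61 (SE 0.16, adjusted p = 0.00276) where fasted wild-type had given -1.74. Pdia6 differed by -1.02 (SE 0.13, adjusted p = 0.00700) beside -0.87, and Edem1 by -0.87 (SE 0.14, adjusted p = 0.0124) beside -0.85. The call of Edem1 was lost without fed wild-type replicate 1 (adjusted p = 0.0535), fed wild-type replicate 2 (0.0642) or fasted Cnot3+/- replicate 2 (0.0547). Dnajc3 differed by -0.42 (adjusted p = 0.120) beside -0.37, while it passed with the mean over its 5 probe sets (-0.55, adjusted p = 0.0199). Its 2 dimmest probe sets passed on their own: the dimmest had means of 9.20 in fed and 8.20 in fasted Cnot3+/- liver (adjusted p = 0.0237), and the next differed by -0.69 (adjusted p = 0.0455). Of the macrophage markers 6 of 13 passed as higher in this comparison, and their part in the values of the folding genes was not tested. Pdia4 differed by -0.35 (adjusted p = 0.198), Herpud1 by 0.45 (0.603), Dnajb9 by 0.06 (0.932), Hsp90b1 by 0.04 (0.931), Hspa5 by 0.02 (0.964) and Xbp1 by 0.01 (0.983). As in the fasting comparison, Herpud1 turned on the fed arrays: it differed by 1.16 and passed (adjusted p = 0.0200) without fed wild-type replicate 1, and by -0.26 without fed wild-type replicate 2. With the mean over probe sets Pdia6 differed by -0.63 (adjusted p = 0.0399).

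**Figure D4:**
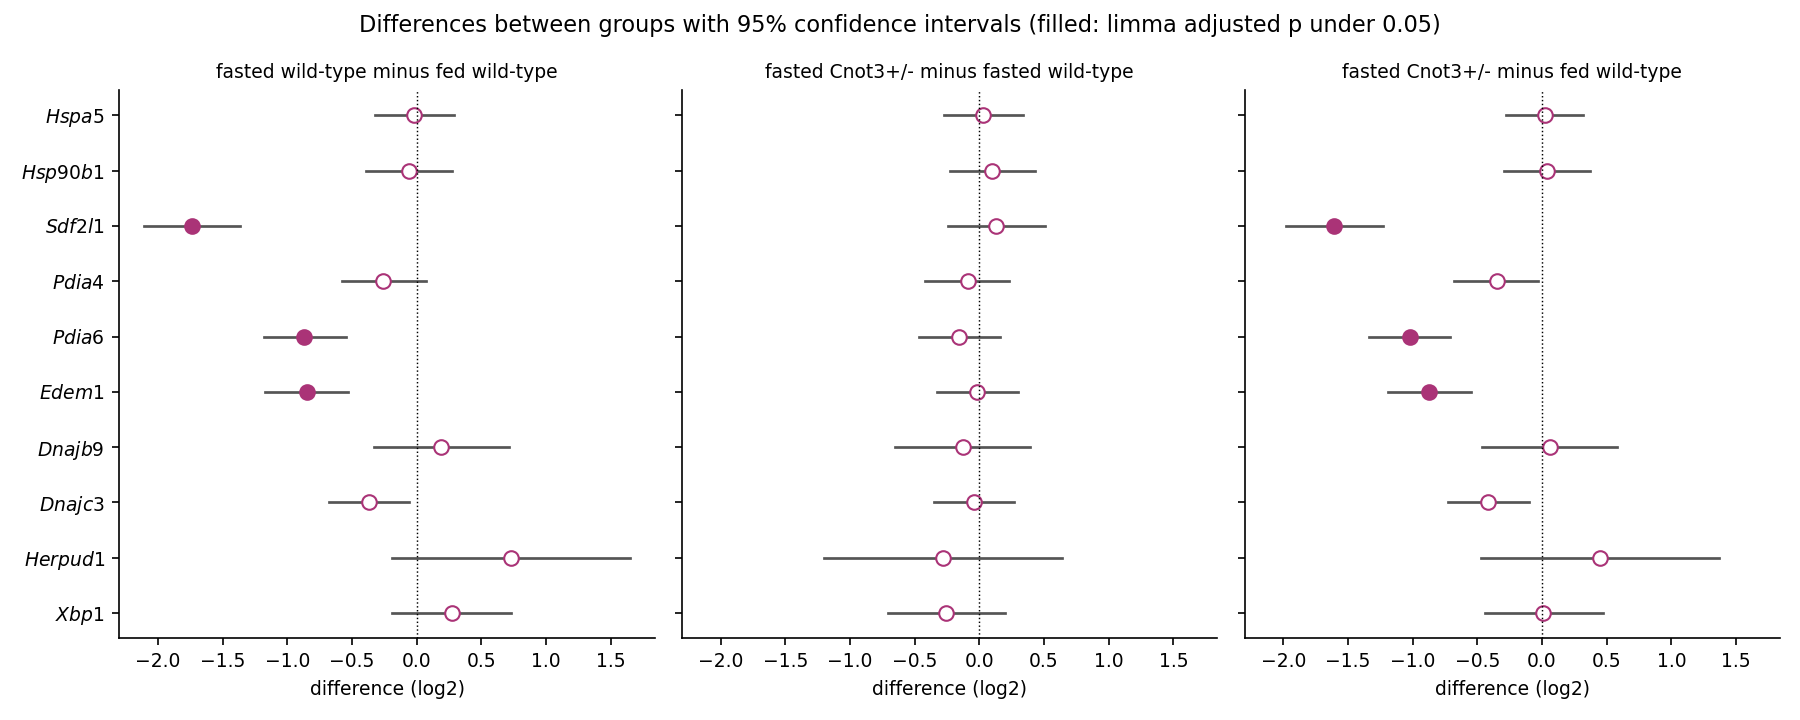
Differences between groups (log2) for the 10 genes in the 3 comparisons, with 95% confidence intervals; filled points have a limma adjusted p under 0.05. Sdf2l1, Pdia6 and Edem1 are filled in both comparisons with fed liver and none is filled between the fasted genotypes, where every interval spans 0.

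The rest of the secretory pathway was described through 8 further gene lists. The lists were chosen with earlier results of these data known, so their counts are a description without a test. Among these lists, downward calls were most frequent at the step where new chains enter the ER. Of 22 measured translocation genes, 10 fell on fasting and 0 rose, with a median of -0.54, against 3.15% of all genes lower. Sec61b, a subunit of the channel that chains pass through, differed by -1.24 (SE 0.13, adjusted p = 0.00456), and Sec61a1, the pore itself, had means of 12.60 in fed and 11.60 in fasted wild-type liver (adjusted p = 0.00644). Spcs3, a subunit of the signal peptidase that cuts off the signal sequence, differed by -1.16 (SE 0.12, adjusted p = 0.00445), and Ssr1, a channel-associated protein, by -0.99 (SE 0.11, adjusted p = 0.00579). Sec61b read 12.42 and 12.50 in fed, 11.09 and 11.36 in fasted wild-type and 11.20 and 11.23 in fasted Cnot3+/- liver, with no overlap between fed and fasted arrays. The count of 10 dropped to 4 when fed wild-type replicate 2 was left out, to 1 when fasted wild-type replicate 1 was, and to 3 when fasted wild-type replicate 2 was.

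Genes of N-glycan processing, which attach and trim the sugar chains of secreted proteins, had 6 of 25 lower, against 3.15% of all genes, and 0 higher (median -0.30). Uggt1, the sensor that re-glucosylates unfolded glycoproteins, differed by -1.09 (SE 0.13), and the oligosaccharyltransferase subunits Stt3a, Ddost and Rpn2 by -1.03 (SE 0.16), -0.99 (SE 0.16) and -0.76 (SE 0.13). Leaving out fasted wild-type replicate 1 took the count of 6 to 0, and leaving out any of the other 3 arrays took it to 1. Of 18 genes of disulfide formation, 4 fell (3.15% over all genes) and 0 rose, and all 18 differences were negative (median -0.32). These were Txndc5, an isomerase (-1.08), Ero1b, an oxidase that recharges the isomerases (-1.05, or -0.65 with the mean over probe sets), Erp44, which retrieves oxidases and unassembled clients (-0.76), and Erp29 (-0.67). That count became 0 when fed wild-type replicate 2 or fasted wild-type replicate 1 was left out, and 1 when fasted wild-type replicate 2 was.

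Among 22 other chaperones and co-factors of the ER, 4 fell (3.15% over all genes) and 0 rose, and 19 of 22 differences were negative (median -0.42). These were the collagen chaperone Serpinh1 (-1.37, SE 0.19), the proline isomerase Ppib (-0.81, SE 0.11), the reductase Dnajc10 (-0.75, SE 0.16) and the cargo receptor Lman1 (-0.73, SE 0.13). Col3a1, a collagen that Serpinh1 assists, fell as well (-2.32, SE 0.34, adjusted p = 0.0125), as did 4 of the 11 stellate cell and fibroblast markers in all (1 rose, median -0.44). Col3a1 was called under 8 of 13 alternatives: it was lost with any 1 of the 4 arrays left out and without probe sets shared between transcripts (-0.51), and it was -1.41 with the mean over probe sets. The part of those cells in the value of Serpinh1 was not tested. Calr and Canx, the lectin chaperones that hold glycoproteins, and Dnajb11, the partner of Sdf2l1, differed by -0.31 (adjusted p = 0.205), -0.40 (0.201) and -0.31 (0.314). Without probe sets shared between transcripts Dnajc10 differed by -0.41 (adjusted p = 0.283), and with the mean over probe sets Lman1 differed by -0.47 (adjusted p = 0.103). These 4 calls became 2 when fed wild-type replicate 1 was left out, 0 when any of the other 3 arrays was, and 2 with the mean over probe sets.

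ER-associated degradation, to which Edem1 and Herpud1 belong, had 1 of 27 genes lower and 1 higher, near the shares over all genes (3.15% and 1.87%). These were Edem2 (-1.38, SE 0.16, adjusted p = 0.00589), a mannosidase related to Edem1, and Nploc4 (0.74, SE 0.14, adjusted p = 0.0331), a cofactor of the segregase Vcp, with a median of -0.06. Edem2 differed by -0.72 (adjusted p = 0.0198) with the mean over probe sets and did not pass without fasted wild-type replicate 1, and Nploc4 did not pass with any 1 of the 4 arrays left out or with each probe set tested on its own. Of 17 genes for the stress sensors and their activation, 2 fell and 1 rose, against 3.15% and 1.87% of all genes: Ern1, which encodes Ire1, and Atf6 fell (-0.89, SE 0.18, adjusted p = 0.0377, and -0.70, SE 0.14, adjusted p = 0.0376) and Creb3l3, a liver-enriched ER-bound factor of fasting metabolism, rose (0.96, SE 0.13, adjusted p = 0.0114). With the mean over probe sets Ern1 differed by -0.10 (adjusted p = 0.650) and Atf6 by -0.05 (adjusted p = 0.917), and neither passed with each probe set tested on its own. Atf6 was not called with any 1 of the 4 arrays left out, and Ern1 was called only when the one left out was fed wild-type replicate 1. The rise of Creb3l3 lost its call when fed wild-type replicate 1 or either fasted wild-type array was left out.

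Of 14 genes of the Perk and Atf4 branch, 2 rose (against 1.87% of all genes higher), Ddit4 (1.11, SE 0.21, adjusted p = 0.0338) and Sesn2 (0.77, SE 0.17, adjusted p = 0.0466), both of which restrain mTORC1, and 0 fell. Of the 14 differences 9 were positive and 5 negative (median 0.46). Neither was called with each probe set tested on its own or with any 1 of the 4 arrays left out; Sesn2 also lost its call with a variance trend and in a fit of only the groups compared. Of 25 genes of ER to Golgi transport, 1 fell and 1 rose, near the shares over all genes (3.15% and 1.87%): Sec23b, a coat subunit of the vesicles that leave the ER, fell (-1.16, SE 0.17, adjusted p = 0.0124) and its paralog Sec23a rose (0.57, SE 0.11, adjusted p = 0.0351), with a median of -0.02. Sec23b lost its call when either fed array or fasted wild-type replicate 1 was left out, and Sec23a lost it with any 1 of the 4 arrays left out and with each probe set tested on its own.

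**Figure D5:**
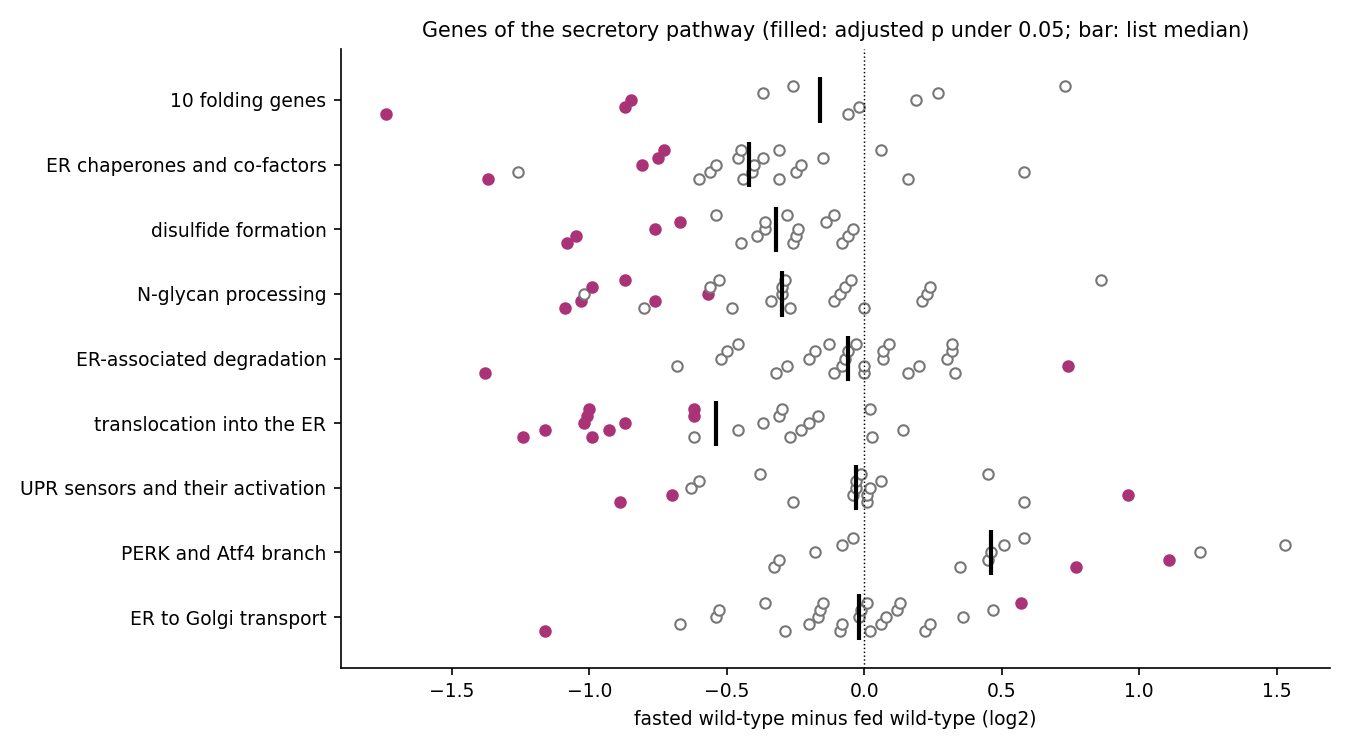
Difference between fasted and fed wild-type liver (log2) for every measured gene of the 10 folding genes and the 8 further lists of the secretory pathway; filled points have a limma adjusted p under 0.05 and bars are list medians. The translocation list has the lowest median (-0.54) and 10 filled points, and the Perk and Atf4 branch is the only list with a median well above 0 (0.46).

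Between the fasted genotypes 0 genes of these 8 lists passed, and the list medians ran from -0.03 to 0.15. Single differences ran from -0.47 for Ostc to 1.43 for Ddit4 (SE 0.21, limma adjusted p = 0.766). Ddit4 read 10.70 and 10.45 in fasted wild-type and 12.33 and 11.67 in fasted Cnot3+/- liver. Against fed liver, fasted Cnot3+/- liver had 10 of 22 translocation genes lower and 0 higher, against 3.68% and 3.88% of all genes. Sec61b differed by -1.25 beside -1.24 in fasted wild-type liver. Of the 14 genes of the Perk and Atf4 branch 4 were higher (3.88% of all genes), where fasted wild-type liver had 2 (1.87% of all genes). The difference between these counts was not tested.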

How the data were processed

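Liver RNA of 6 samples was read on mouse expression arrays. The authors deposited log2 levels, and RMA is the tool listed in the submitters' processing notes (version not given in the sources used here). Per the labels' protocols, 10 ug of total RNA went into each labelling reaction. No further normalization was applied. Of 45101 probe sets, 34945 name a single gene, 932 several and 9160 none; 64 are controls. For each of 18193 genes, the probe set with the highest mean over the 6 arrays was kept.

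The test was limma (version 3.58.1, R 4.3.3), with all 3 group means in 1 model (residual df 3, prior df 4.24), two-sided, with Benjamini-Hochberg adjustment over all genes at 0.05. SE is the moderated standard error. The fit was tested on simulated data. In the fasting comparison it recovered 45 of 100 genes set to change 2-fold and 87 of 100 set to change 4-fold. Genes that did not pass may therefore still have changed. A replicate block, other probe set summaries, 2 further normalizations, a filter on dim genes, a variance trend, a fit of only the groups compared, and each array left out in turn were tried. With 1 array left out, the lone array of its group is assumed to vary as the others do.

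The members and all gene lists were chosen with earlier results of these data known. Named are all members, up to 4 called genes of each list by smallest p in the fasting comparison (the 2 smallest p where none was called, for pathway lists), Cnot3, and the 8 genes most like the members' mean. Other genes given beside these (Calr, Canx, Dnajb11, Col3a1, Lrat, Dcn, Lyve1, Igfbp1, Pck1 and Srebf1) were chosen after their values were seen. Sequences are from RefSeq, GRCm38.p6; protein sequences were not used here. Python 3.11.15 and matplotlib 3.10.9 drew the figures.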

Additional observations from a re-analysis of the deposited data

How the results depend on the processing

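The number of folding genes called in the fasting comparison, 3, was 2 with the mean over probe sets and 3 under each of the other 8 settings that kept all arrays; leaving out each array in turn gave 1 to 2. The 2 called without fed wild-type replicate 1 share 1 gene with the main 3, Sdf2l1, the other being Herpud1, higher. For fasted Cnot3+/- against fed liver, leaving out each array in turn gave 2 to 3, the mean over probe sets 4 and every other setting 3 (the 3 without fed wild-type replicate 1 share 2 with the main 3, with Edem1 lost and Herpud1 gained), and that between the fasted genotypes was 0 throughout. The median difference of the 10 genes moved with the mean over probe sets to -0.11 (fasting), -0.16 (genotype) and -0.12 (fasted Cnot3+/- against fed). Without probe sets shared between transcripts, which leaves 8 of the 10 genes, it was -0.31 (fasting) and -0.38 (fasted Cnot3+/- against fed). The 2 genes left out were Hspa5 and Hsp90b1, with fasting differences near 0 (-0.02 and -0.06). Xbp1 was then read by another probe set (-0.11 on fasting). Leaving out each array in turn gave medians of -0.21 to -0.11 (fasting), -0.09 to -0.07 (genotype) and -0.31 to -0.13 (fasted Cnot3+/- against fed). No called value changed sign under these settings.

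The replicate numbers do not pair the samples in the labels; the gaps between replicates 1 and 2 correlated across genes at 0.04 (fed with fasted wild-type), -0.01 (fed with Cnot3+/-) and 0.45 (both fasted groups). With a replicate block, 3, 0 and 3 folding genes were called in the 3 comparisons, with medians of -0.16, -0.07 and -0.17, and the count over all genes was 1206 in place of 913 for fasting. That count was 574 with every probe set tested and 137 to 458 with an array left out; for fasted Cnot3+/- against fed it was 1375, 857 in a fit of only the groups compared and 597 to 929 with an array left out.

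The dimmer probe sets of Pdia4 and Pdia6 lie under the array medians, so the mean over probe sets of these genes mixes a probe set with little signal over background into the value.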

Other observations

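Outside the 10 genes and among genes brighter than the median gene, the 8 whose levels over the 6 arrays were most like the mean of the folding genes (each centred on its own mean) were Acot11, Ppp4r3a, Pgk1, Ccl25, Ak4, Pgrmc1, Dll1 and Jpx, with Pearson r from 0.985 to 0.998. This is a description over 6 arrays in 3 groups, picked as the highest among all genes brighter than the median, and the mean they resemble was 0.28 and 0.17 in fed, -0.04 and -0.11 in fasted wild-type and -0.14 and -0.15 in fasted Cnot3+/- liver. Ak4, a mitochondrial adenylate kinase, read 11.43 and 11.30 in fed, 10.69 and 10.64 in fasted wild-type and 10.54 and 10.46 in fasted Cnot3+/- liver. Pgk1, a glycolytic kinase, moved over a much smaller range, from 13.13 to 12.85.

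In the other lists of the secretory pathway, ERSE was present before Calr, Canx and Creld2 among 18 chaperones and co-factors matched to a promoter, before Alg12 among 21 N-glycan genes, and before Derl3 and Syvn1 among 17 degradation genes. It was present before 0 of 17 translocation genes and 0 of 14 genes of disulfide formation. These counts are near the share over all promoters, 0.113% of 32851.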
